A study of Mus musculus with 4 samples.

Results

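The genes described here are the chemokines and chemokine receptors printed on a mouse whole-genome microarray. They were taken by name from the array's non-control probes: every gene called Ccl, Cxcl or Ccr with a number, Cxcr with a number, or Cx3c. The rule found 48 genes on 61 probes, of 27597 genes and unnamed features on the array. They were 20 CC ligands, 12 CXC ligands, 1 CX3C ligand and 15 receptors, and 25 of the 48 met the filter for testing.

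C2C12 cells are an established line of mouse myoblasts, muscle precursors that fuse into myotubes when serum is lowered. The GDF8 group was differentiated for 6 days with 20 nM recombinant mouse GDF8 (myostatin), renewed every 24 h. The untreated group was differentiated for the same time without it, and both had been grown in 10% fetal bovine serum. The labels give the horse serum of the differentiation medium as 2% in one place and 10% in another. Each of 4 two-colour arrays held 1 GDF8 RNA and 1 untreated RNA, so there were 4 samples in each group. GDF8 RNA carried the red dye Cy5 on replicates 2 and 3 and the green dye Cy3 on replicates 1 and 4. The labels call the replicates biological but do not say how the cultures were kept apart, so the p-values measure only the spread between these samples. GDF8 was an added protein given to 1 cell line, so the groups describe muscle cells in culture, without the immune cells of a muscle.

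Chemokines are small secreted proteins that guide moving cells, and they act through receptors coupled to G proteins. CC, CXC and CX3C ligands are named for the spacing of their first cysteines, and most receptors bind several ligands. In injured muscle, ligands such as Ccl2 draw in monocytes, and Cxcl12 with its receptor Cxcr4 guides muscle precursors. GDF8 is a ligand of the TGF-beta family that limits muscle growth and signals through SMAD transcription factors.

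Of the 25 tested members, Cxcl13, Cxcr6 and Ccl11 were lower in GDF8-treated cells, by 2.71-fold, 2.44-fold and 1.92-fold. No member was higher. Among the other ligands, Cxcl5, Cxcl1 and Ccl8 had fitted log2 ratios of GDF8 over untreated of -0.91, -0.92 and -0.67 that did not pass the test. Cxcl16, the ligand of Cxcr6, and Cxcr4 had log2 ratios of -0.12 and 0.19, which did not pass either.

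The sequences just upstream of Cxcl13 and Cxcr6, the members with the lowest ratios, are shown because SMAD proteins and muscle regulators of the MyoD family bind short motifs in DNA. Each window runs from 250 bases before the transcription start to 50 bases after it, 5′ to 3′, on the plus strand of GRCm38.p6, and comes from RefSeq. Capitals mark the E-box CANNTG and the SMAD element CAGAC on either strand, with GTCTG as its reverse complement.
Cxcl13, chr5:95956689-95956988: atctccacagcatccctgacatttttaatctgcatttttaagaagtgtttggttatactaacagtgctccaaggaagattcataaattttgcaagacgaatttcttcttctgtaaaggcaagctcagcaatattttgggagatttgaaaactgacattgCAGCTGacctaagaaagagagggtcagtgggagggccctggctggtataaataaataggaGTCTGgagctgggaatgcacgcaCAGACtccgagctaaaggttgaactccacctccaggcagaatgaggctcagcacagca
Cxcr6, chr9:123806227-123806526: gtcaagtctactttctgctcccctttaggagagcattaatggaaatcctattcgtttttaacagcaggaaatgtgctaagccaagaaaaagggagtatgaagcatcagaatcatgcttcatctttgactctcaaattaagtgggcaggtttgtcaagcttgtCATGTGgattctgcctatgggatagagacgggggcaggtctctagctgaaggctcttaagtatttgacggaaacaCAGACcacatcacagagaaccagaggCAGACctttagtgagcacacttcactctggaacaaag

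The Cxcl13 window held 1 E-box, beginning 91 bases before the start, and SMAD elements 31 and 8 bases before it. The Cxcr6 window held 1 E-box 88 bases before the start and SMAD elements 13 bases before and 13 bases after it. No capitalised matches overlapped. Over 32851 windows of the same length, 72.3% held an E-box and 49.6% a SMAD element, so matches of this kind were common. Of 25 tested members, 19 matched a window, through 21 windows, since Ccl25 and Ccr6 have 2 each. Ccl11, Cxcl5, Ccl2, Ccl7, Ccl5 and Cxcl16 matched no window. Of those 21 windows, 16 held an E-box and 12 a SMAD element. The NF-kB consensus, searched on both strands, matched in 4.51% of all windows and in 5 of the 21, but in neither window printed here. A match describes letters and does not show that a protein was bound.

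A probe was called well above background from the scanner's own flag in the channel of the RNA. Of the 48 members, 22 were well above background in both groups on all 4 arrays. A further 3, Ccl6, Ccr6 and Ccr9, met this on 4 untreated arrays but on 3 GDF8 arrays. These 3 entered the test through the untreated group. The plot of detection by gene and group shows this division.

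**Figure D1:**
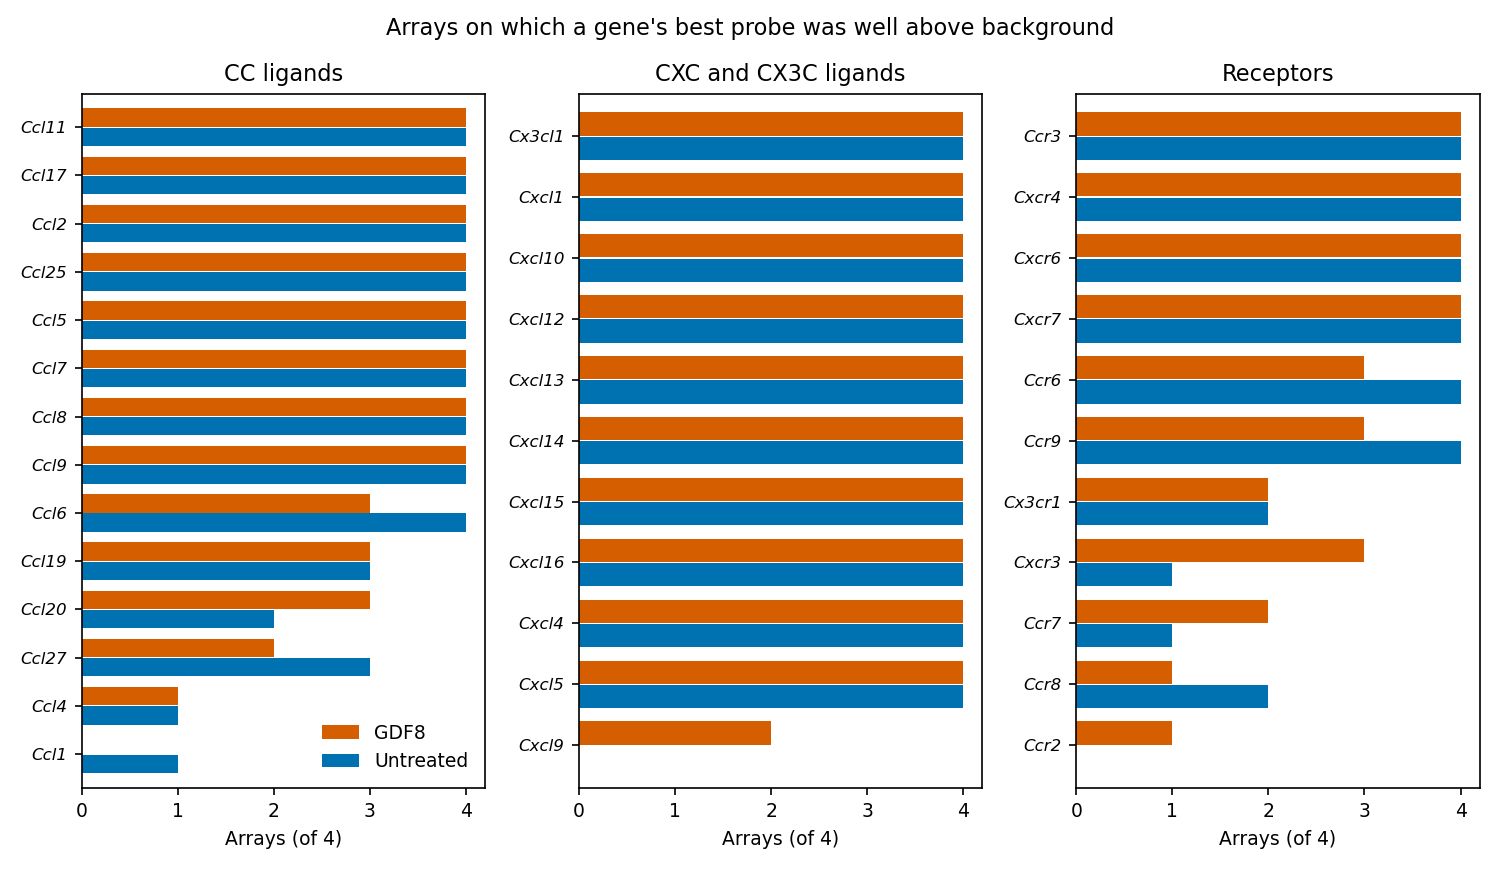
Number of arrays, 0 to 4, on which a gene was well above background, for the members that were so in at least 1 channel, with the GDF8 bar above the untreated bar. 22 genes reached 4 arrays in both groups.

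The other 23 members were not tested. Ccl19 was above background on 3 GDF8 and 3 untreated arrays, and its brighter probe had no value on replicate 1, where the spot was an outlier, which kept it from the test. Ccl20 was above background on 3 GDF8 and 2 untreated arrays. Cxcr3 was above it on 3 GDF8 arrays and 1 untreated array, and Cxcl9 on 2 GDF8 and 0 untreated arrays. Among these Cxcr3 is the receptor of Cxcl9, and both are known from T cell responses to interferon. Ccl27 was above background on 2 GDF8 and 3 untreated arrays, Cx3cr1 on 2 GDF8 and 2 untreated arrays, Ccr7 on 2 GDF8 arrays and 1 untreated array, and Ccr8 on 1 GDF8 array and 2 untreated arrays. Ccl4 was above it on 1 array of each group, Ccl1 on 0 GDF8 and 1 untreated array, and Ccr2 on 1 GDF8 and 0 untreated arrays. In no channel of either group were the ligands Ccl3, Ccl12, Ccl21c, Ccl22, Ccl24, Ccl28, Cxcl2 and Cxcl11 or the receptors Ccr1, Ccr4 and Ccr10 well above background. Ccr1 and Ccr2 are receptors of monocytes and T cells, and Ccr7 guides cells to lymph nodes.

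Cxcl13 attracts B cells to lymphoid follicles. Its normalised log2 intensity was 10.77, 10.88, 11.47 and 10.75 in GDF8 samples 1 to 4, against 12.43, 12.25, 12.36 and 12.58 in untreated samples 1 to 4. All GDF8 samples lay below all untreated ones. The fitted log2 ratio was -1.44 ± 0.11 (SE, n = 4 arrays; 95% interval -1.70 to -1.17; limma, adjusted p = 0.0083). The ratio averaged -1.14 where GDF8 carried Cy5 and -1.74 where it carried Cy3, so it was negative in both dye orientations.

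Cxcr6 is the receptor of the membrane-bound ligand Cxcl16 and marks tissue-resident lymphocytes. Its log2 intensity was 11.33, 11.26, 11.66 and 10.89 in the GDF8 samples, against 12.69, 12.67, 12.72 and 12.19 in the untreated ones. The groups did not overlap. The fitted log2 ratio was -1.28 ± 0.10 (SE, n = 4 arrays; 95% interval -1.52 to -1.05; limma, adjusted p = 0.0083). In the unpaired test named in the study's methods Cxcr6 did not pass after Benjamini-Hochberg adjustment (adjusted p = 0.069). Its ligand Cxcl16 had log2 intensities of 11.17, 11.08, 11.08 and 10.93 in the GDF8 samples, against 11.35, 11.30, 10.94 and 11.13 in the untreated ones. Those groups overlapped, and the fitted log2 ratio of Cxcl16 was -0.12 ± 0.10 (SE; 95% interval -0.35 to 0.12; limma, adjusted p = 0.84). A second Cxcl16 probe gave -0.03.

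Ccl11, or eotaxin, attracts eosinophils through Ccr3. Its log2 intensity was 8.80, 8.89, 8.70 and 8.74 in the GDF8 samples, against 9.58, 9.68, 9.62 and 9.99 in the untreated ones. Every GDF8 sample was below every untreated sample. The fitted log2 ratio was -0.94 ± 0.11 (SE, n = 4 arrays; 95% interval -1.20 to -0.68; limma, adjusted p = 0.013). Its receptor Ccr3 had a log2 ratio of 0.10 with a 95% interval of -0.22 to 0.42, and its ratios were -0.25, -0.05, 0.28 and 0.43 on arrays 1 to 4. The Ccr3 ratios took both signs.

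**Figure D2:**
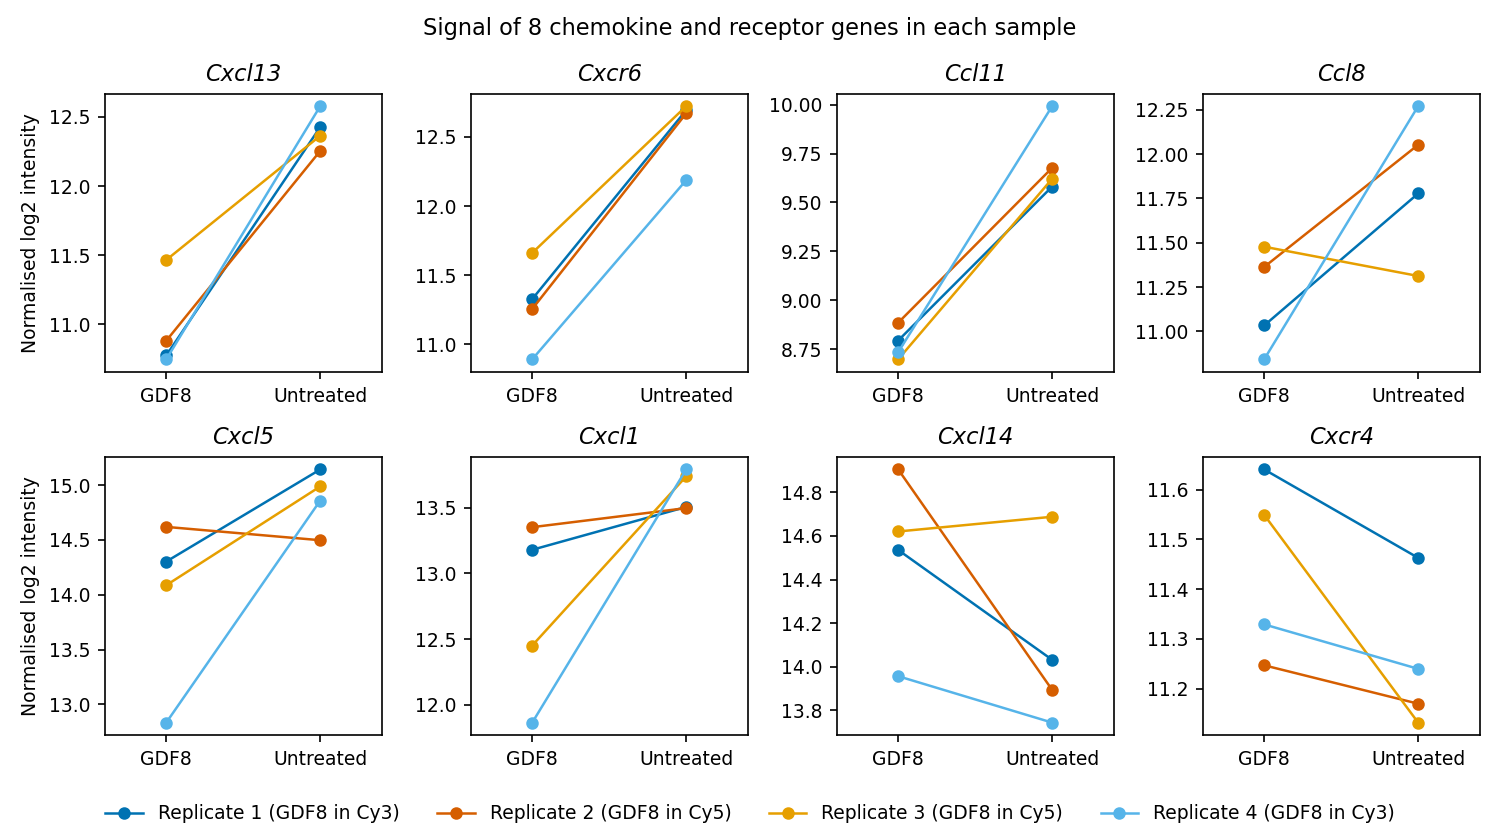
Normalised log2 intensity of Cxcl13, Cxcr6, Ccl11, Ccl8, Cxcl5, Cxcl1, Cxcl14 and Cxcr4 in each sample, GDF8 left of untreated, with a line joining the samples of 1 array; each panel has its own axis. Among the genes drawn, the GDF8 and untreated samples do not overlap for Cxcl13, Cxcr6, Ccl11 and Cxcl1, and overlap for the other 4 genes. Cxcl15, not drawn, does not overlap on its tested probe, while on its other probe the groups overlap. The share of all features without overlap was not counted.

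Because all 25 tested members come from mixed RNA of a whole culture, fewer cells making a transcript and less of it per cell cannot be told apart. The 3 lower members were 12% of the 25, against 2.3% of all 17444 features lower at an adjusted p under 0.05. The 0 higher members compare with 0.86% of all features higher. At an unadjusted p under 0.05, 10 members were lower, or 40%, against 7.17% of all features, and 0 were higher against 5.3%. The unpaired test named in the study's methods, run on the same values, called 2 members lower, Cxcl13 and Ccl11, and 0 higher after Benjamini-Hochberg adjustment.

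Cxcl13, Cxcr6, Ccl11, Cxcl1, Cxcl15, Ccl7 and Ccr9 were lower on all 4 arrays, 7 of 25 or 28%, against 8.24% of all features. For Cxcl15 this held for the tested probe, and its other probe was lower on replicate 4 alone. Ccr6 and Cxcr4 were higher on all 4 arrays, 2 of 25 or 8%, against 6.82%. Cxcl13, Cxcr6, Ccl11, Cxcl1 and Cxcl5 were lower by at least 1.6-fold, 5 of 25 or 20%, against 1.66%. No member was higher by 1.6-fold, where 0.43% of all features were. The median fitted log2 ratio was -0.13 over the tested members and 0.01 over all features, and 20 of 25 members, or 80%, were below 0, against 47.8% of features. Ccr9, Ccr6 and Ccl6, which entered through the untreated group, are in these counts. Ccl2, Cxcl12, Cxcr7 and Cx3cl1, whose tested probes had saturated channels, are in these counts and the next, each with a fitted ratio below 0. With only probes never saturated, the members' median was -0.19, against 0.01 for all features. Over the 22 members above background in both groups, 6 were lower on all 4 arrays, against 7.61% of the 16371 features above it in both, 9 were lower at an unadjusted p under 0.05, against 6.72%, and 18 were below 0, against 47.2%.

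**Figure D3:**
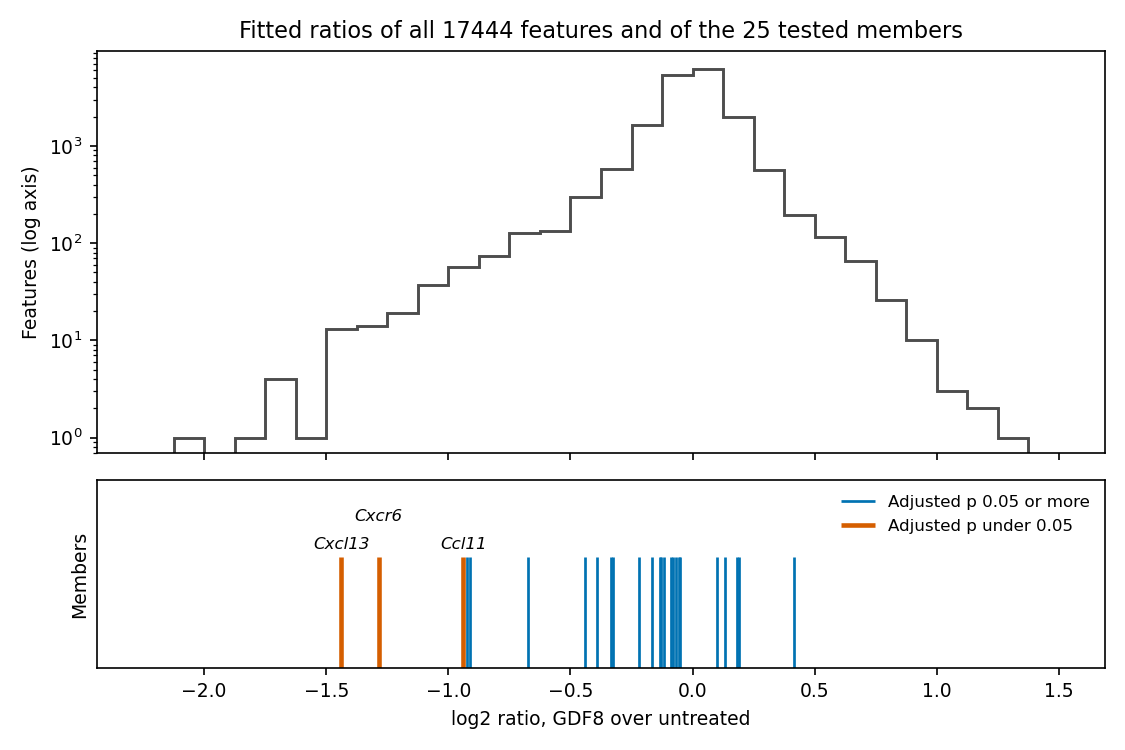
Distribution of the fitted log2 ratio of GDF8 over untreated across 17444 features (upper panel; number of features on a log axis) and the 25 tested members on the same axis (lower panel). 20 of the 25 lie below 0.

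Other CXC ligands are known for drawing in neutrophils. Cxcl5 had log2 intensities of 14.30, 14.62, 14.09 and 12.83 in the GDF8 samples, against 15.14, 14.50, 14.99 and 14.86 in the untreated ones. GDF8 replicate 2 reached above untreated replicate 2, and GDF8 replicate 4 was the lowest of all. The fitted log2 ratio was -0.91 ± 0.23 (SE; limma, adjusted p = 0.125), with arrays at -0.84, 0.12, -0.90 and -2.03. Cxcl1 had log2 intensities of 13.18, 13.35, 12.45 and 11.86 in the GDF8 samples, against 13.51, 13.50, 13.74 and 13.79 in the untreated ones. The groups did not overlap, but the arrays ran from -0.15 to -1.93, and the fitted log2 ratio was -0.92 ± 0.28 (SE; limma, adjusted p = 0.21). Without replicate 1 both genes passed in limma, Cxcl5 at -1.21 (adjusted p = 0.0486) and Cxcl1 at -1.32 (adjusted p = 0.0481), and without replicate 4 they stood at -0.62 and -0.52 with adjusted p = 0.35 and adjusted p = 0.52.

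Cxcl15, a lung-associated ligand in mice, had log2 ratios of -0.18, -0.11, -0.56 and -0.92 on arrays 1 to 4. Its fitted value was -0.44 ± 0.15 (SE; limma, adjusted p = 0.25). Another probe of the gene gave -0.12, with arrays at 0.06, 0.01, 0.02 and -0.58. Cxcl4, called Pf4 in RefSeq and released by platelets, had a fitted log2 ratio of -0.33 (adjusted p = 0.39). Cxcl14, a ligand found in many epithelia, had the highest fitted log2 ratio of the members, 0.41 ± 0.18 (SE; limma, adjusted p = 0.42), with arrays at 0.50, 1.01, -0.07 and 0.21. Cxcl10, an interferon-induced ligand, had a log2 ratio of -0.09 ± 0.22 (SE) with a 95% interval of -0.61 to 0.44. Its arrays took both signs, and leaving out 1 array gave fits from -0.43 (without replicate 2) to 0.26 (without replicate 3).

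Among the CC ligands, Ccl8, a monocyte attractant, had log2 intensities of 11.03, 11.36, 11.48 and 10.84 in the GDF8 samples, against 11.78, 12.05, 11.31 and 12.27 in the untreated ones. The groups overlapped at replicate 3. The fitted log2 ratio was -0.67 ± 0.17 (SE; limma, adjusted p = 0.13), and -0.89 without replicate 3 (adjusted p = 0.043). Ccl7, which attracts monocytes too, had a fitted log2 ratio of -0.39 and arrays at -0.10, -0.02, -0.60 and -0.85 (adjusted p = 0.37), and its other probe gave -0.31. Ccl2, the monocyte attractant best known in muscle repair, had a fitted log2 ratio of -0.13 ± 0.11 (SE; limma, adjusted p = 0.85). Its arrays gave -0.40, 0.47, 0.33 and -0.91, following the dye: the mean was 0.40 with GDF8 in Cy5 and -0.65 with GDF8 in Cy3. Ccl2 spots were saturated on 2 GDF8 and 2 untreated arrays, and its receptor Ccr2 was not tested.

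None of the remaining CC ligands passed the test. By fitted log2 ratio Ccl25, a thymus and gut ligand, gave -0.22, Ccl17 gave -0.17, Ccl5 gave -0.13, Ccl6 gave -0.05 and Ccl9 gave 0.18. Ccr9, the receptor of Ccl25, had a fitted log2 ratio of -0.33 ± 0.09 (SE; limma, adjusted p = 0.15), with arrays at -0.60, -0.13, -0.20 and -0.40. Ccr6, the receptor of Ccl20, gave 0.13.

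Cxcl12 guides muscle precursors through Cxcr4 and is scavenged by Cxcr7, now named Ackr3. Its brightest probe, saturated on 2 GDF8 and all 4 untreated arrays, gave the tested log2 ratio of -0.07. That ratio is limited by saturation and is not read as a fold, but it is in the members' counts and medians. A second Cxcl12 probe, saturated on 2 GDF8 arrays and 1 untreated array, had a log2 ratio of -0.13 ± 0.14 (SE; limma, adjusted p = 0.85). Cxcr4 had log2 intensities of 11.64, 11.25, 11.55 and 11.33 in the GDF8 samples, against 11.46, 11.17, 11.13 and 11.24 in the untreated ones. The groups overlapped, although GDF8 was the higher on each array, and the fitted log2 ratio was 0.19 ± 0.10 (SE; 95% interval -0.05 to 0.43; limma, adjusted p = 0.56). A brighter Cxcr4 probe had no value on replicate 1 and was not tested. Its log2 ratios on replicates 2 to 4 were 0.13, 0.48 and 0.27. Cxcr7 had a log2 ratio of -0.08, with saturated spots on 2 arrays of each group. Cx3cl1, a membrane-bound ligand whose receptor Cx3cr1 was not tested, had an unsaturated probe at -0.08 ± 0.09 (SE; limma, adjusted p = 0.85).

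**Figure D4:**
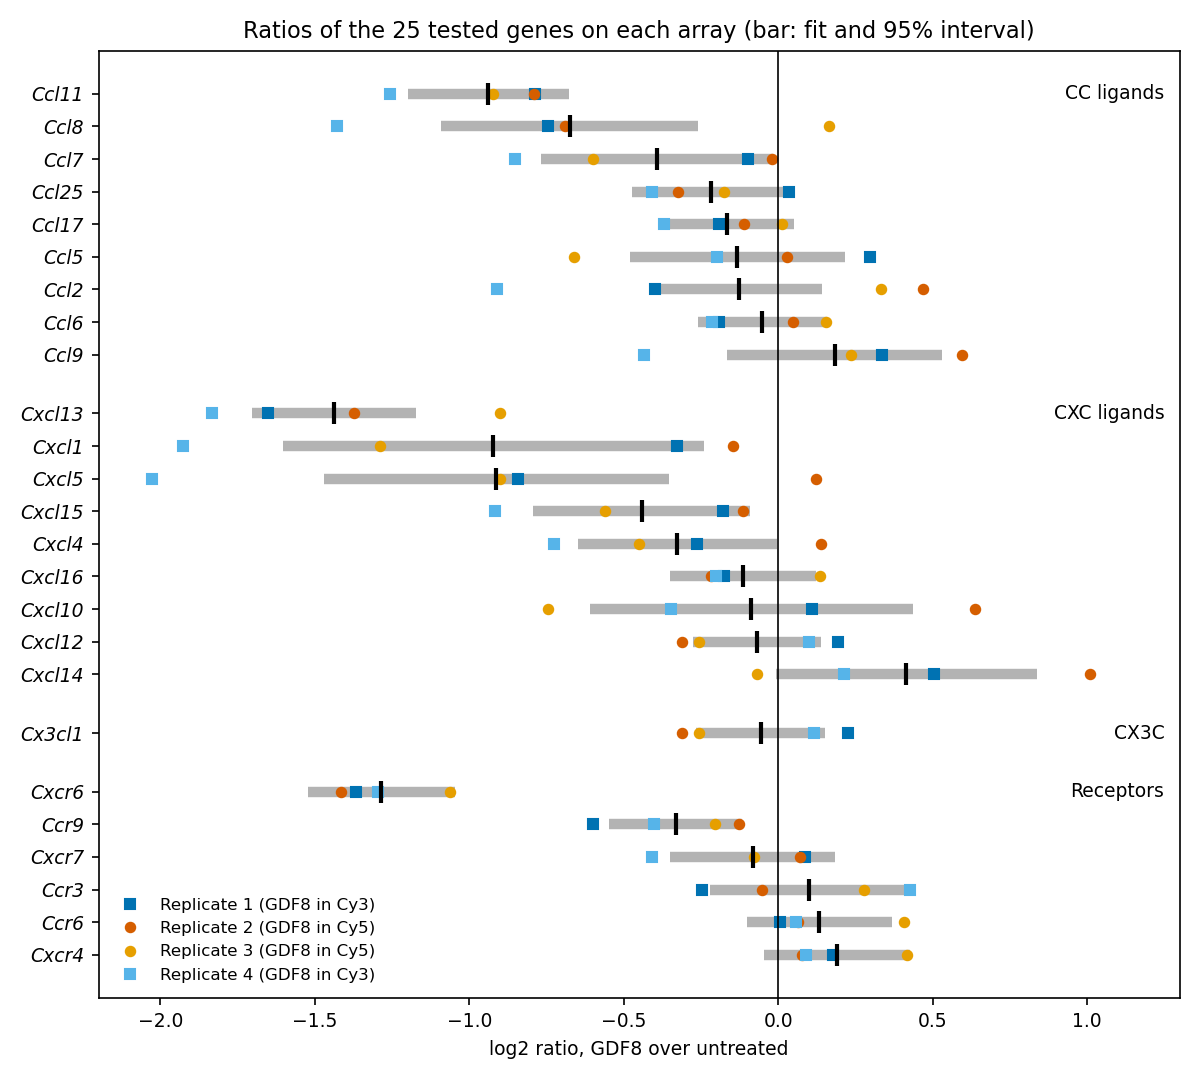
Log2 ratio of GDF8 over untreated on each of 4 arrays for the 25 tested members, with the fitted value and its 95% interval. Colour gives the replicate. Circles mark GDF8 in Cy5 and squares GDF8 in Cy3. The intervals of Cxcl13, Cxcr6 and Ccl11 end at or below -0.68. Cxcl12 and Cx3cl1 are drawn from probes saturated on all 4 untreated arrays.

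Many of these genes lie side by side in the genome. In the RefSeq gene order of chromosome 11, Ccl2, Ccl7, Ccl11, Ccl12, Ccl8 and Ccl1 follow one another with 0 protein-coding genes between them. Within that row the fitted log2 ratios were -0.13 for Ccl2, -0.39 for Ccl7, -0.94 for Ccl11 and -0.67 for Ccl8. Ccl5, Ccl9 and Ccl6, 25 protein-coding genes further on, gave -0.13, 0.18 and -0.05. On chromosome 5, Cxcl5, Ppbp, Cxcl4, Cxcl3, Cxcl15, Cxcl1 and Cxcl2 are adjacent, and the tested members there gave -0.91, -0.33, -0.44 and -0.92 for Cxcl5, Cxcl4, Cxcl15 and Cxcl1. Cxcl13, at -1.44, lies further along chromosome 5, beyond Cxcl10 at -0.09. On chromosome 9, Cxcr6 at -1.28 lies near Ccr9 at -0.33 and Ccr3 at 0.10. Differences between neighbours were not tested.

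**Figure D5:**
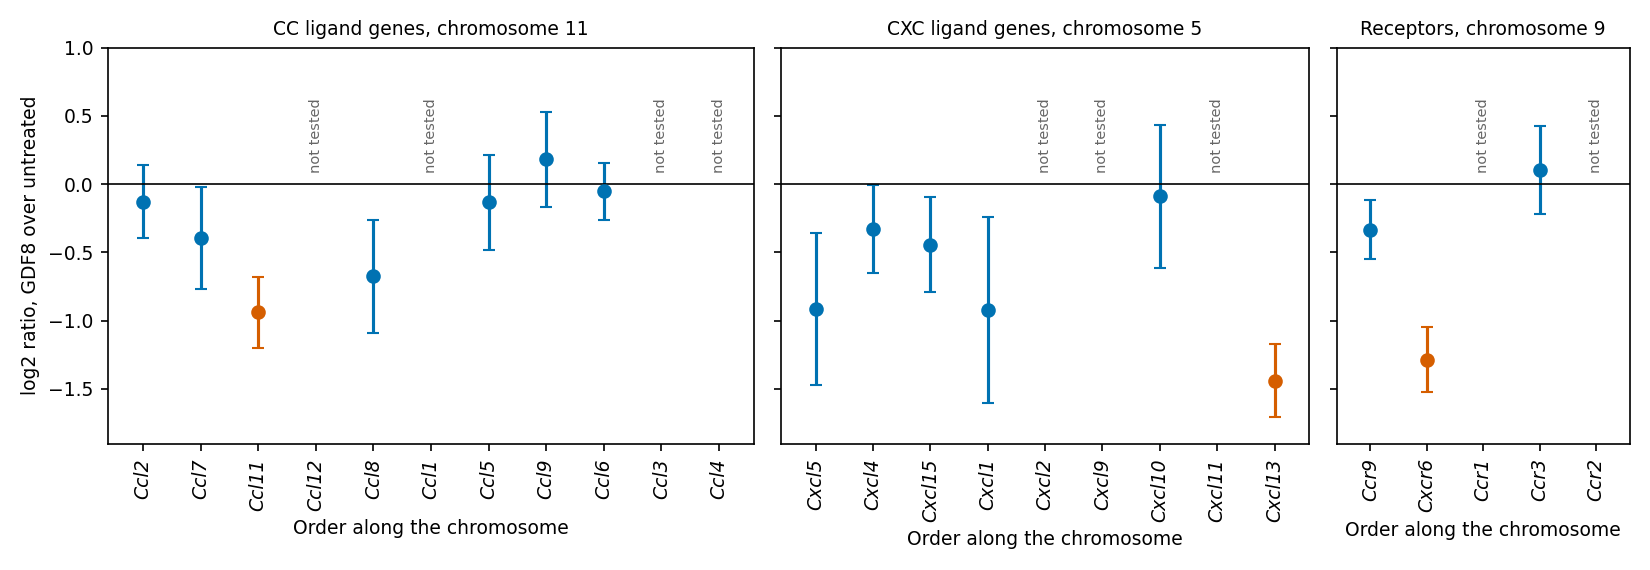
Fitted log2 ratio of GDF8 over untreated for members in their gene order on chromosomes 11, 5 and 9. The horizontal axis is order, not distance, error bars are 95% intervals, and orange marks an adjusted p under 0.05. Ccl11, Cxcl13 and Cxcr6 are the orange points.

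By class, the median fitted log2 ratio was -0.33 over 9 CXC ligands, -0.17 over 9 CC ligands and 0.01 over 6 receptors, with 8, 8 and 3 of them below 0. Cxcl12, Ccl2 and Cxcr7, with saturated channels, are among those below 0. Differences between the classes were not tested. By array, the members' median log2 ratio was -0.18, -0.05, -0.20 and -0.41 on replicates 1 to 4, against -0.02, 0.04, 0.02 and -0.08 for all features. Replicate 4 gave the lowest ratio in 14 of 25 members, or 56%, and in 37.5% of all features.

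Other genes of chemokine biology were read against the same shares of all features, 2.3% lower and 0.86% higher. The list of atypical receptors and chemokine-like genes also holds Cxcl4 and Cxcr7, which are tested members already counted above. Of 14 tested genes among 17 atypical receptors and chemokine-like genes, 1 was lower: Ppbp, a neutrophil attractant of platelets, a direct neighbour of Cxcl5, at -0.75 ± 0.13 (SE; limma, adjusted p = 0.033), with arrays at -0.55, -0.51, -0.80 and -1.16. Rarres2, or chemerin, had -0.30 (adjusted p = 0.20). Of 20 tested cytokines and receptors that induce chemokines, 1 was lower: Il1b, an inflammatory cytokine, fell by 1.00 on the log2 scale (SE 0.12; limma, adjusted p = 0.014), while Il6 had 0.39 (adjusted p = 0.16) and Il4ra 0.28 (adjusted p = 0.29). Of 20 tested NF-kB factors, 0 passed at an adjusted p under 0.05 in limma and 0 at an unadjusted p under 0.05. The lowest p-values there were those of Nfkbiz, at -0.57 (adjusted p = 0.44), and Ikbkg, at -0.20 (adjusted p = 0.45).

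In the signalling of chemokine receptors, 30 of 34 genes were tested and 1 was higher. Gng2, a G protein gamma subunit, had a log2 ratio of 0.69 ± 0.10 (SE; limma, adjusted p = 0.018), with arrays at 0.83, 0.73, 0.73 and 0.49. Rgs2, which speeds the switching off of G proteins, had -0.42 (adjusted p = 0.063), and Grk6, a receptor kinase, 0.20 (adjusted p = 0.47). Of 20 tested proteases and proteoglycans that cut or hold chemokines, 1 was lower: Mmp13, a collagenase, at -0.77 ± 0.14 (SE; limma, adjusted p = 0.041), which was above background on 2 of 4 GDF8 arrays and entered the test through the untreated group. Sdc3 had 0.32 (adjusted p = 0.17) and Bgn 0.42 (adjusted p = 0.20). The median log2 ratios of the 5 lists lay between -0.06 and 0.04. Saturation limits these medians: 13 of the 20 proteases and proteoglycans had a saturated channel. So did 10 of the 30 signalling genes, 8 of the 20 cytokine genes, 3 of the 14 atypical receptors and chemokine-like genes, and 2 of the 20 NF-kB factors.

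The samples carried the markers of muscle cells. All 15 muscle differentiation genes were tested, 2 of them, Mef2c at -0.95 and Ckm at -0.93, were lower in GDF8-treated cells, and 11 had a saturated channel. Of 11 proliferation genes, 6 were higher, Ccnb1 at 0.95 among them, and the list's median was 0.75. Of 15 leukocyte markers, 8 were tested, 0 passed in limma and 0 had an unadjusted p under 0.05, with a median of 0.02. The defining leukocyte genes Ptprc and Adgre1 were in no channel above background. Among the tested leukocyte markers Cd34 had saturated channels, and it is also counted among the fibroblast markers. Of 12 fibroblast markers, 9 were tested, 0 passed in limma and 0 had an unadjusted p under 0.05. Of these 9, 6 had a saturated channel, which limits what their ratios can show. Of 8 endothelial markers, 4 were tested and 0 passed, with 3 at an unadjusted p under 0.05 in limma. Of these 3, Vwf at -0.40 and Cldn5 at -0.28 were lower, and Tek at 0.35 was higher. Of all features, 7.17% were lower and 5.3% higher at that threshold. Kdr, the fourth tested, had 0.15. Cldn5 was above background on 3 GDF8 arrays and entered the test through the untreated group. Pecam1, Emcn and Tie1 were in no channel above background. The 6 proliferation genes that passed, with Mef2c and Ckm, thus changed in the same samples as Cxcl13, Cxcr6 and Ccl11. Their part in the changes of those 3 members was not tested.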

How the data were processed

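RNA from 4 GDF8 and 4 untreated C2C12 samples was hybridised to 4 two-colour Agilent arrays on 1 slide. The deposited scanner files hold spot intensity in both dyes and background flags, per the file headers, from Feature Extraction 9.1.1.1. The deposited value table holds log2 ratios of GDF8 over untreated: it equalled the scanner's processed ratio in 100% of 40283 single-spot probes (tolerance 0.001). The deposited scanner files also give log10 ratios, used only for that check. The table's column medians were 0.14, -0.09, -0.11 and 0.09, so it is not centred.

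Intensities were corrected with normexp (offset 50) on mean signal and median background, normalised by loess within each array with controls at weight 0, and turned to GDF8 over untreated by the dye labels, with limma 3.58.1 in R 4.3.3. Outlier spots were dropped and spots of a probe averaged. Levels come from Aquantile between arrays. A probe was kept if well above background on all 4 arrays of either group: 26577 of 41174 probes, with the brightest probe standing for its gene, giving 17444 features. A dye term was fitted per probe, eBayes followed, and p-values were adjusted over all features by Benjamini-Hochberg. An exact sign-change test over 4 arrays cannot go below p = 0.125. Well above background were 63.3% to 78.8% of GDF8 channels' spots and 67.1% to 77.5% of untreated ones. The number of arrays limits the precision.

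Names were updated through RefSeq accessions, symbols or synonyms where these matched (24375, 6301 and 2426 probes), and 8072 kept the file's name. The members and gene lists were chosen with earlier results of these data known. All tested members are named, and 1 member that was not tested is not reported here. Full statistics are given for members past adjusted p 0.05, at 1.6-fold or more, or with the next 3 smallest p-values, and for the muscle pairs. Code was tested on simulated data. Alternatives tried were Agilent's processed signals, another offset, median centring, other filters and probe choices, no dye term, single channels, the deposited table, the methods' t-test and leaving out each array.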

Additional observations from a re-analysis of the deposited data

Results flagged for a closer look

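The ratios of the 25 tested members, their median and the median of all features, 27 results in all, were searched for an array far from the other 3, and chance gives such an array in about 1 of 20. The log2 ratio of Ccr6 was 0.41 on replicate 3, where the other arrays lay between 0.01 and 0.06. The log2 ratio of Cxcl16 was 0.13 on replicate 3, against -0.22 to -0.18 on the other arrays. A second Cxcl16 probe, not used for the gene, gave 0.09, -0.32, 0.15 and -0.05 on replicates 1 to 4. Neither gene passed the test.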

How the results depend on the processing

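The count of lower members was 3 in most alternatives. It was 6 with median centring in place of loess, which added Ccl8, Cxcl1 and Cxcl5, each with the same SE of 0.18 from a fully pooled spread, and 2 with the methods' t-test after Benjamini-Hochberg, which left out Cxcr6 (adjusted p = 0.069). The methods' own threshold gave 4, adding Cxcl1. Leaving out 1 array gave 3 to 5: 5 without replicate 1, which added Cxcl1 and Cxcl5, and 4 without replicate 3, which added Ccl8. The count of higher members was 0 throughout. The cause of these differences was not tested. Over the 16 alternatives that refit the ratios, the log2 ratio ran from -1.56 to -1.32 for Cxcl13, -1.37 to -1.20 for Cxcr6 and -1.20 to -0.82 for Ccl11 (past the threshold in 16 of 16, 15 of 16 and 16 of 16). Those 16 alternatives are not independent of one another or of the main fit. Aquantile left the ratios as they were, the deposited table holds Agilent's processed ratios, and other filters kept the same probes of these 3 genes. The arrays pair the samples, and the fit of single channels without that replicate block called 3 members lower.

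Over all features the lower count was 88 with the t-test after adjustment and 76 to 322 without 1 array. The higher count was 66 without a dye term, 61 in single channels with no replicate block, 25 with the t-test, 61 with a fold over 1.6 required, 69 at the methods' threshold and 8 to 107 without 1 array. Higher calls were 27.2% of all calls, and 9.52% without replicate 4. Saturation limits Ccl2, Cxcl12, Cx3cl1 and Cxcr7, and 23 members did not meet the filter, Ccl19 because of an outlier spot.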
